A study of Mus musculus with 12 samples.

Results

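The nuclear genes of oxidative phosphorylation were compared by respiratory complex in bulk tumors grown from a mouse pancreatic cancer line with inducible mutant p53. Genes were taken by name: Nduf for complex I, Sdha to Sdhd for complex II, Uqcr for complex III, Cox4 to Cox8 for complex IV and Atp5 for complex V, each with a mean RPKM over 1 across the 12 tumors. RPKM is the number of reads per kilobase of exon, scaled to the mapped reads of the library. By name 90 of 22630 genes matched, and 88 passed the level limit: 42 for complex I, 4 for complex II, 8 for complex III, 17 for complex IV and 17 for complex V. By textbook knowledge 81 of them encode subunits. The other 7 are the complex I assembly factors Ndufaf1 to Ndufaf4, and Cox4nb, Atp5s and Atp5sl, which were not counted as subunits. Just inside the limit lay Cox4i2 and Cox6b2, with mean RPKM values of 1.34 and 1.82. Just outside lay Cox7b2 and Cox8c at 0.0216 and 0.00713.

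KCip53-1 cells were dsRed-sorted cells of 1 primary tumor of a mouse that carried Ptf1a-Cre, TREp53R270H and R26rtTa/rtTa among its alleles, in which Cre is driven by a promoter of pancreatic epithelium and doxycycline (dox) induces p53R270H. The cells were grown subcutaneously in NSG mice, which lack T, B and NK cells but keep their own muscle, vessels, fibroblasts and macrophages, and which were 8 to 10 weeks old. The paper reports that its KCip53 lines were kept with dox in culture, so the group names refer to dox given to the host. The 4 no-dox tumors had no dox in the host. The 4 plus-dox tumors had 36 days of dox at 0.2 g/l in sucrose water. The 4 off-dox tumors had 33 days of dox followed by 3 days without. All 3 groups come from a single line and therefore started from the same alleles, the transgene included. By PCR and sequencing the paper found mutant p53 DNA alone in KCip53 lines and reports the wild-type sequence as lost. Each mouse bore a pair of tumors whose partner the labels do not give. Pairs from 1 host may therefore count as separate tumors, and p-values measure the spread between tumors and not between mice. The tumors were not sorted, so fewer cells of a type and less RNA per cell cannot be told apart in any value below.

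Oxidative phosphorylation couples electron flow to ATP synthesis in the inner mitochondrial membrane. Complex I (NADH dehydrogenase) and complex II (succinate dehydrogenase, also an enzyme of the tricarboxylic acid cycle) pass electrons to ubiquinone. Complex III passes them on to cytochrome c, complex IV (cytochrome c oxidase) reduces oxygen, and complex V (ATP synthase) uses the proton gradient. Complexes I, III, IV and V also hold subunits encoded by mitochondrial DNA, which were not analysed here. Pancreatic tumors are known for reworked glucose and glutamine use, and p53 is a known regulator of mitochondrial respiration, among other things through the complex IV assembly factor Sco2.

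Counted reads ran from 19845923 to 33137609 per tumor, and the members took 0.957 to 1.28% of them. Mapped totals were worked out from the counts, RPKM values and exonic lengths of the genes. The share of mapped reads that fell on genes set the no-dox tumors apart, at 88.4 to 89.4%. It was 82.2 to 87.1% in plus-dox and 81.1 to 85.8% in off-dox tumors, and these ranges overlapped. Levels are therefore given as normalised RPKM, in which counted reads were scaled by TMM factors (trimmed mean of M values) and divided by exonic length. Trp53 pools reads of the transgene with reads of the endogenous gene, which host cells also supply, and the 2 cannot be told apart. It ran from 47.9 to 64.5 in no-dox, 49.6 to 65.8 in plus-dox and 48.8 to 55.0 normalised RPKM in off-dox tumors. The groups overlapped, so its level gives no check of induction, and the groups are named here as labelled. Epithelial markers, which the injected line expresses, summed to 2629 to 3659 normalised RPKM in no-dox, 1607 to 2601 in plus-dox and 1291 to 3219 in off-dox tumors.

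Levels of the members differed widely by gene. The most abundant members, as means over the 12 tumors, were Cox4i1 at 601, Atp5e at 551, Uqcrh at 529 and Atp5b at 523 normalised RPKM. Cox4i1 is the general form of a large nuclear subunit of complex IV, Atp5e and Atp5b are the epsilon and beta subunits of the F1 head of ATP synthase, and Uqcrh is the hinge protein of complex III. In complex I the highest were Ndufa4, which was later placed in complex IV, at 412 and Ndufa7 at 253. In complex II the order was Sdhd, the small membrane anchor, at 155, Sdhc, the other anchor, at 117, the iron-sulfur subunit Sdhb at 106 and the flavoprotein Sdha at 63.0. The lowest subunits were Cox6b2 at 2.11 and Cox4i2 at 1.57, tissue-restricted forms of complex IV subunits. Ndufs5 had a counted exonic span of 25 bases, under the 250-bp limit for calls, and only 3 counts in its lowest tumor.

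The summed level of the members was lower, on average, in both dox groups than in no-dox tumors, in every complex. Complex I summed to 4611 ± 499 normalised RPKM in no-dox tumors, 3998 ± 491 with dox and 4079 ± 537 off dox (mean ± SD of 4 tumors). Complex II summed to 500 ± 49.0, 420 ± 33.0 and 404 ± 25.3 in the same order. Here the 4 no-dox tumors (461 to 569) all lay above the 4 plus-dox (380 to 447) and the 4 off-dox tumors (376 to 433). Complex III summed to 1883 ± 283, 1598 ± 209 and 1616 ± 183, and complex IV to 3339 ± 368, 2991 ± 267 and 3092 ± 390. Complex V summed to 4737 ± 487, 4348 ± 524 and 4211 ± 393. For complexes I, III, IV and V the groups overlapped. The summed means of plus-dox tumors differed from no-dox by -13.3, -16.0, -15.1, -10.4 and -8.21% for complexes I to V, and those of off-dox tumors by -11.5, -19.1, -14.2, -7.40 and -11.1%.

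**Figure D1:**
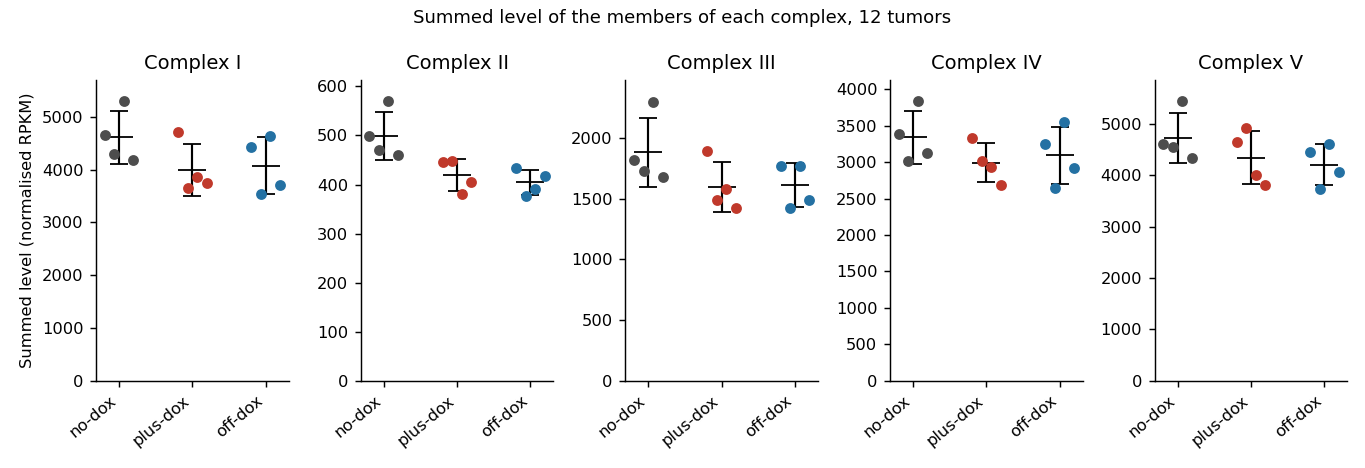
Summed level of the members of each complex (normalised RPKM, axis from 0) in each of the 12 tumors, with points for tumors and black bars for mean ± SD of 4 tumors per group. In complex II all 4 no-dox tumors lie above the other 8, while in the other complexes plus-dox tumor 1 and off-dox tumors 1 and 3, among others, reach into the no-dox range.

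Single tumors stood apart. No-dox tumor 3 was the highest of the 12 for 48 of 88 members, and off-dox tumor 2 the lowest for 40. Relative to the no-dox mean, the median member stood at 0.17 on the log2 scale in no-dox tumor 3, at -0.40 in off-dox tumor 2 and at -0.03 in plus-dox tumor 1. Off-dox tumor 3 differed by gene length. Members of up to the median exonic length of 680.5 bases had a median of 0.05 there, and longer members -0.19. Over all genes above 1 RPKM, genes of that length or shorter had a median of 0.20 there and in no-dox tumor 3, and genes of every length -0.08 and -0.01. The part of this length difference in single members was not tested. Without no-dox tumor 3 the members' median log2 fold changes were -0.11 in plus-dox and -0.12 in off-dox, with 71 and 58 of 88 below 0.

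Between plus-dox and no-dox tumors 80 of 88 members had a fitted log2 fold change below 0. The median was -0.19, against 0.01 over the 17561 genes tested and -0.03 over genes above 1 RPKM, of which 54.7% were below 0. The study called differential expression by DESeq2 at an adjusted p under 0.1, over 1.5-fold, mean RPKM over 0.25 and length over 250 bp. At these limits edgeR's quasi-likelihood test called no member and no other gene (0.0% called). The smallest adjusted p of a member was 0.322. At an unadjusted p under 0.05, 13 members were lower, or 14.8% of 88, against 5.67% of all genes that were lower at that limit. In 12 members (13.6%) every plus-dox tumor lay below every no-dox tumor, as in 4.49% of all genes, and no member was separated upwards, against 4.37% of all genes. Of the 12694 genes above 1 RPKM, the level limit of the members, 884 were lower at that unadjusted p. Of the same genes 732 were separated downwards and 512 upwards. DESeq2 gave 2 members (2.27%) with an adjusted p under 0.1, against 1.50% of all genes, and limma-voom with tumor weights gave 4 (4.55%), against 2.86%, none past 1.5-fold. At all the limits of the study DESeq2 called 128 of the 17561 genes and limma-voom 112, and neither called a member. Without plus-dox tumor 1, 37 members were separated downwards, and so were 10.1% of all genes. It was 15 members against 7.88% without no-dox tumor 3 and 15 against 7.07% without plus-dox tumor 2.

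Between off-dox and no-dox tumors 74 of 88 members were below 0, with a median of -0.19 against 0.01 over all genes and -0.04 over genes above 1 RPKM. Here 5 members, or 5.68%, were lower with an adjusted p under 0.1 (edgeR), against 1.38% of all genes. None passed the fold limit and so none was called, against 1.34% of all genes called in either direction. At an unadjusted p under 0.05, 24 members (27.3%) were lower, against 9.48%. In 17 members (19.3%) all off-dox tumors lay below all no-dox tumors, against 5.69%, and in none above, against 5.85%. Of the 12694 genes above 1 RPKM, 238 were lower at the adjusted limit and 1552 at the unadjusted one. Of the same genes 951 were separated downwards and 753 upwards. The count of members separated downwards was 27 without no-dox tumor 4 (8.27% of all genes) and 25 without off-dox tumor 1 (11.2%). It was 20 without off-dox tumor 4 (9.28%) and 17 without no-dox tumor 3 (9.05%). That 5 members had an adjusted p under 0.1 rested on the tumors entered. The count ran from 0 to 13 as single tumors were left out: it was 0 without any one of 4 no-dox tumors, off-dox tumor 2, 3 or 4, or plus-dox tumor 3 or 4, 2 without plus-dox tumor 1, 6 without plus-dox tumor 2 and 13 without off-dox tumor 1. Over all genes the share lower at that limit moved too, to 1.10, 2.17 and 4.73% in these last 3 fits, and was at most 0.0057% in the fits with 0 members. It was also 0 when only the 8 tumors compared were fitted, where 3 of all genes passed.

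**Figure D2:**
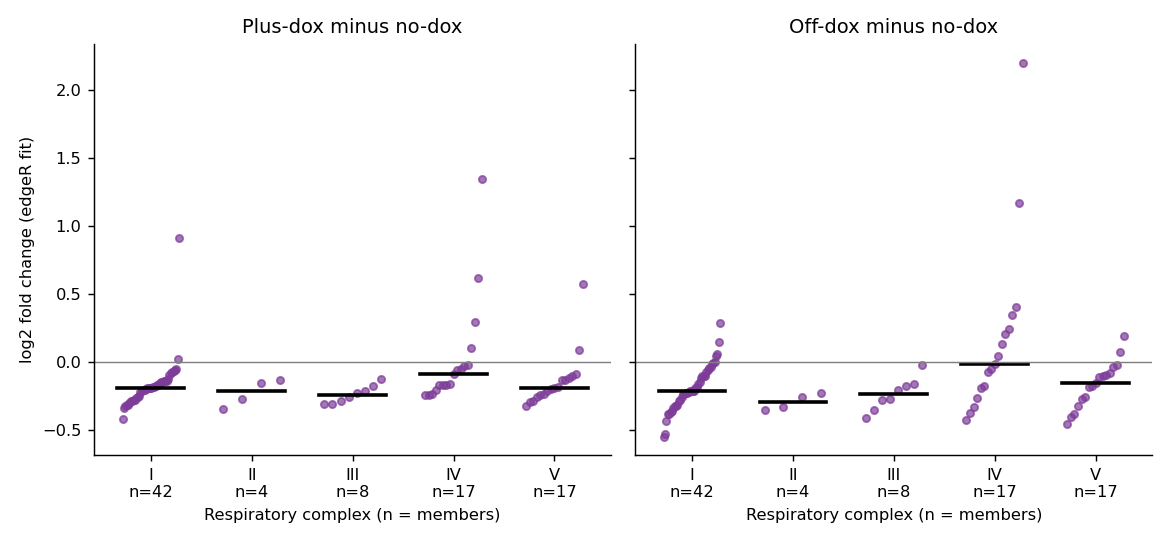
Log2 fold change of each of the 88 members (vertical axis, edgeR fit) by complex, for plus-dox minus no-dox (left) and off-dox minus no-dox (right), with points sorted within a complex and black lines at its median. Most points lie between -0.55 and 0, and the few far above 0 are Ndufa4l2 in complex I, Cox6a2, Cox8b and Cox4i2 in complex IV and Atp5j2 in complex V.

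Off-dox and plus-dox tumors gave no such shift. Of 88 members 43 were lower and 45 higher in off-dox, the median log2 fold change was 0.00, and the smallest adjusted p was 1. None was called (0.0% of all genes), and none reached an unadjusted p under 0.05 in edgeR in either direction, against 1.81% of all genes that were lower at that limit. DESeq2 likewise gave 0 members with an adjusted p under 0.1, against 8 of all 17561 genes (0.046%). Sdha was the single member whose groups did not overlap (0.752% of all genes were separated downwards and 0.649% upwards). It ran from 61.7 to 63.6 normalised RPKM in plus-dox and from 51.9 to 60.8 in off-dox tumors. Both comparisons with no-dox use the same no-dox tumors, so their likeness is not independent. In 9 members both dox groups lay below every no-dox tumor, among them Ndufv1, Ndufa10, Sdhc, Uqcrc2, Cox8a, Atp5a1, Atp5c1 and Atp5g2. They are 10.2% of the members, against 2.43% of all genes with both groups below.

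Other measures also differed between the no-dox tumors and the dox groups. Whether they followed the member levels tumor by tumor was not tested. The share of mapped reads on genes was lower in every plus-dox and off-dox tumor than in every no-dox tumor, and with that share as a covariate, a fit chosen after seeing the data, the medians were -0.09 and -0.05 and no member reached an unadjusted p under 0.05. Because the share separates no-dox from the other tumors, it cannot be told apart from the groups in this fit. Of 10 epithelial markers 9 were lower in each dox group (medians -0.65 and -0.54), of which 3 were separated in plus-dox and 0 in off-dox (4.49 and 5.69% of all genes), and none had an adjusted p under 0.1 in edgeR. In plus-dox tumor 2, 7 of the 10 were at their lowest of the 12 tumors, among them the adhesion proteins Epcam (9.12 normalised RPKM) and Cdh1 (26.0), and the keratins Krt8, Krt18 and Krt19 were at their lowest in off-dox tumor 3. Macrophage markers summed to 2489 to 3752, 3035 to 3349 and 2829 to 4754 in the 3 groups. Fibroblast markers (1444 to 2580, 1938 to 3797, 1629 to 1985), endothelial markers (38.3 to 55.5, 44.4 to 153, 39.8 to 68.0), adipocyte markers (65.4 to 1300, 66.6 to 841, 83.9 to 432) and the 2 measured red blood cell markers (18.8 to 43.5, 17.3 to 138, 30.6 to 66.3) overlapped between groups. In plus-dox 9 of 10 fibroblast (median 0.54), 8 of 8 endothelial (0.53) and both red blood cell markers (0.91) were above 0 and 10 of 11 adipocyte markers (-0.38) below. In off-dox the counts above 0 were 4 of 10 fibroblast, 6 of 8 endothelial and 2 of 2 red blood cell markers, and all 11 adipocyte markers (-1.10) were below. The part of cell composition in the lower member levels was not tested.

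Complex I has 7 core subunits encoded in the nucleus, which carry the flavin and the iron-sulfur clusters, and many accessory subunits. All 7 core members were below 0 in both comparisons, with medians of -0.21 in plus-dox and -0.32 in off-dox. Of 31 accessory members by name, which include Ndufa4 and Ndufa4l2, 30 and 28 were below 0, with medians of -0.19 and -0.22. The 4 Ndufaf assembly factors had medians of -0.06 and -0.11. Ndufv1, the subunit that binds NADH and the flavin, had the lowest fold change in both. It was at 74.8, 77.7, 70.2 and 65.2 normalised RPKM in no-dox, at 60.4, 52.0, 50.1 and 52.6 in plus-dox and at 56.3, 43.9, 45.5 and 50.6 in off-dox tumors. Every no-dox tumor lay above the other 8. Its log2 fold change was -0.42 ± 0.10 (SE) in plus-dox (edgeR adjusted p = 0.322) and -0.55 ± 0.10 in off-dox (adjusted p = 0.0786), the latter a level lower by 31.8%.

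Ndufv1 lies on the minus strand at chr19:4007505-4012725 (mm9). In limma-voom with tumor weights it passed the fold limit in off-dox, with a log2 fold change of -0.62. Ndufa13, an accessory subunit also known as GRIM-19 (chr8:72418081-72426113), was at 114, 104, 120 and 104 normalised RPKM in no-dox tumors. In plus-dox tumors it was at 109, 93.4, 76.7 and 79.8, so that plus-dox tumor 1 was within the no-dox range, and in off-dox at 63.9 to 90.6, below all no-dox tumors. Its log2 fold change in off-dox was -0.53 ± 0.13 (adjusted p = 0.0897, edgeR). Ndufa10, an accessory subunit of the membrane-proximal part (chr1:94336296-94370335), ran from 53.1 to 58.5 in no-dox, 42.9 to 48.4 in plus-dox and 39.9 to 48.9 in off-dox, again without overlap with no-dox (off-dox -0.32 ± 0.09, edgeR adjusted p = 0.0933).

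**Figure D3:**
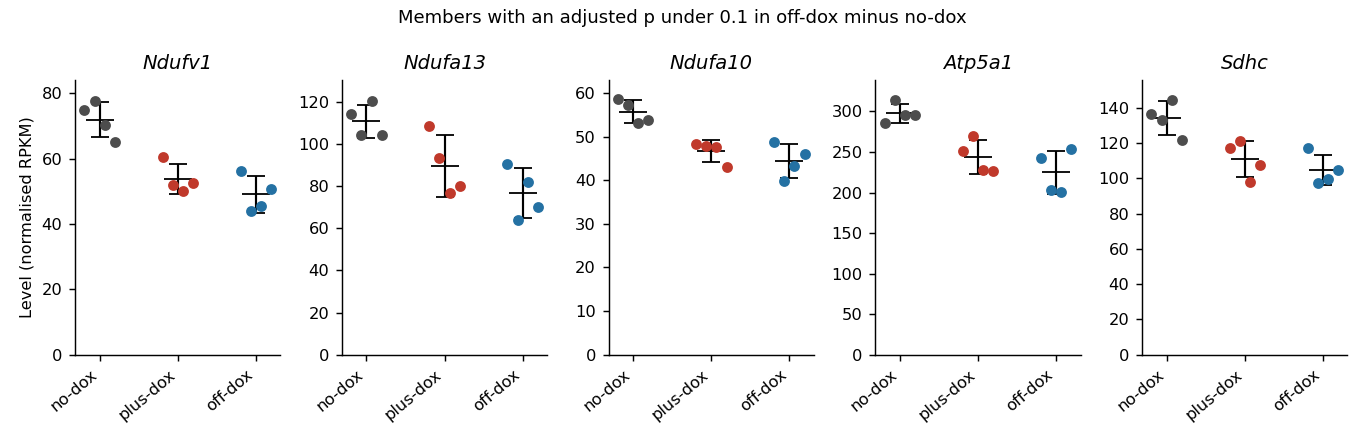
Level (normalised RPKM, axis from 0) of the 5 members with an adjusted p under 0.1 in off-dox minus no-dox (edgeR), with a point for each tumor and mean ± SD of 4 tumors per group. All 4 off-dox tumors lie below all 4 no-dox tumors in each, and plus-dox tumors also do so except for Ndufa13, where plus-dox tumor 1 reaches 109 against a no-dox range of 104 to 120.

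Not all members taken for complex I by name followed. Ndufa4, which was later placed in complex IV, was at 446, 405, 504 and 335 normalised RPKM in the no-dox tumors. It was at 346 to 539 in the off-dox tumors, a log2 fold change of 0.06 ± 0.18 (edgeR adjusted p = 0.879). Ndufs4, an accessory subunit lost in a form of Leigh syndrome, was at 52.5 to 70.7 in no-dox and at 50.0 to 78.5 in off-dox tumors. Ndufa9 was below no-dox in all plus-dox tumors, but off-dox tumor 4 had 109 against 53.4 to 91.9 elsewhere. The most different member upwards was Ndufa4l2, an inducible relative of Ndufa4 known from hypoxic cells and pericytes. It was at 29.8 and 41.2 in plus-dox tumors 2 and 3, at 11.9 and 13.8 in the other plus-dox tumors, and at 25.1 in off-dox tumor 1. The no-dox tumors ran from 9.80 to 16.5, so the groups overlapped, and the log2 fold change in plus-dox was 0.91 ± 0.40 (edgeR adjusted p = 0.352).

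All 6 pericyte markers had positive fold changes in both comparisons, with sums of 16.6 to 27.2 normalised RPKM in no-dox, 25.9 to 49.3 in plus-dox and 26.4 to 39.2 in off-dox tumors, and none was at 0. The sums were highest in plus-dox tumors 2 and 3, at 49.3 and 39.9, which also had the most Ndufa4l2. Off-dox tumor 4 had a sum of 39.2 with the least Ndufa4l2 of the 12 tumors (9.74), and off-dox tumor 1 a sum of 27.8 with 25.1. The part of pericytes in the Ndufa4l2 values was not tested.

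In complex II all 4 subunits were below 0 in both comparisons. Sdhc (chr1:173059288-173080734, minus strand) was at 137, 133, 145 and 122 normalised RPKM in no-dox, at 117, 121, 97.97 and 107 in the plus-dox and at 117, 97.5, 99.6 and 105 in the off-dox tumors. The no-dox tumors were all higher than the other 8, with log2 fold changes of -0.28 ± 0.10 (edgeR adjusted p = 0.326) and -0.36 ± 0.10 (adjusted p = 0.0980). Sdhd ran from 153 to 226 in no-dox, from 128 to 163 in plus-dox and from 135 to 157 in off-dox tumors, with log2 fold changes of -0.35 ± 0.13 and -0.34 ± 0.13. Sdhb ran from 97.4 to 137, from 91.8 to 124 and from 86.8 to 114, and its groups overlapped. Sdha, the catalytic subunit, ran from 62.1 to 74.6, from 61.7 to 63.6 and from 51.9 to 60.8. Its log2 fold changes were -0.14 ± 0.09 and -0.26 ± 0.09 (edgeR adjusted p = 0.472 and 0.136).

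In complex III all 8 members were below 0 in both comparisons, with medians of -0.25 and -0.24. Uqcrc2, a core protein of the matrix arm, was at 148 to 177 normalised RPKM in no-dox, 123 to 143 in plus-dox and 120 to 140 in off-dox tumors, with both dox groups below all no-dox tumors (log2 fold changes -0.31 ± 0.09 and -0.27 ± 0.09, edgeR adjusted p = 0.322 and 0.146). The Rieske iron-sulfur subunit Uqcrfs1 was separated in plus-dox (70.8 to 81.2 against 83.9 to 110) and overlapped in off-dox, where tumor 1 had 85.3. Uqcr11, a small subunit, had the lowest fold change of the complex in off-dox, at -0.42 ± 0.18 (edgeR adjusted p = 0.215). Uqcrh was at 535, 515, 754 and 531 in no-dox, so that a single tumor set the top of its range, and at 415 to 617 in the other 8.

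Complex IV had the smallest median, at -0.09 in plus-dox and -0.01 in off-dox. Its 17 members include tissue-restricted forms of 5 subunits and Cox4nb, which is no subunit. The 11 others had medians of -0.17 and -0.08, with 11 and 8 below 0. Cox6a1 and Cox8a, the general forms of a pair of small subunits, were lowest among these 11 in off-dox. Cox8a was at 379, 362, 376 and 342 normalised RPKM in no-dox, at 336, 341, 295 and 260 in plus-dox and at 325, 195, 279 and 285 in off-dox, so that no-dox tumor 4 stood just above plus-dox tumor 2. Its log2 fold changes were -0.24 ± 0.14 and -0.43 ± 0.14 (edgeR adjusted p = 0.450 and 0.143). Cox7b and Cox7a2 instead had positive values in off-dox, 0.24 ± 0.15 and 0.13 ± 0.16, with adjusted p of 0.383 and 0.663 in edgeR. Cox7b was at 254 in off-dox tumor 3 and at 145 to 208 in the other 11.

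Among the muscle forms of complex IV subunits, Cox6a2 had the largest fold change of the 88 members in both comparisons and Cox8b the next in off-dox, and their groups overlapped. Cox6a2, the heart and muscle form of Cox6a1, was at 4.58, 1.14, 2.11 and 0.437 normalised RPKM in no-dox, at 3.61, 10.6, 3.68 and 3.09 in plus-dox and at 2.65, 13.1, 22.2 and 0.207 in off-dox tumors. Its log2 fold changes were 1.34 ± 1.00 and 2.20 ± 1.01 (edgeR adjusted p = 0.537 and 0.247). Cox8b was at 7.90 and 16.7 in off-dox tumors 2 and 3, listed at 0 in off-dox tumor 4, and at 0.0888 to 5.73 in no-dox tumors. Cox7a1, a form of heart, muscle and brown fat, was at 25.1 and 25.6 in the same off-dox tumors and at 11.4 to 19.5 in the other 10. Skeletal muscle markers, 20 in the list and none at 0 in all tumors, summed to 1365 and 2162 normalised RPKM in off-dox tumors 2 and 3, 805 in plus-dox tumor 2, 25.4 in off-dox tumor 4 and 23.5 in no-dox tumor 4. All 20 had positive fold changes in both comparisons, and 1, the sarcomere gene Actn3, had an adjusted p under 0.1 in off-dox (0.0876, edgeR). The 6 brown adipocyte markers, which include Cox7a1 and Cox8b, summed to 28.1 to 46.1, 18.6 to 39.3 and 14.2 to 51.3 in the 3 groups. The part of host muscle in the levels of these 3 members was not tested.

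**Figure D4:**
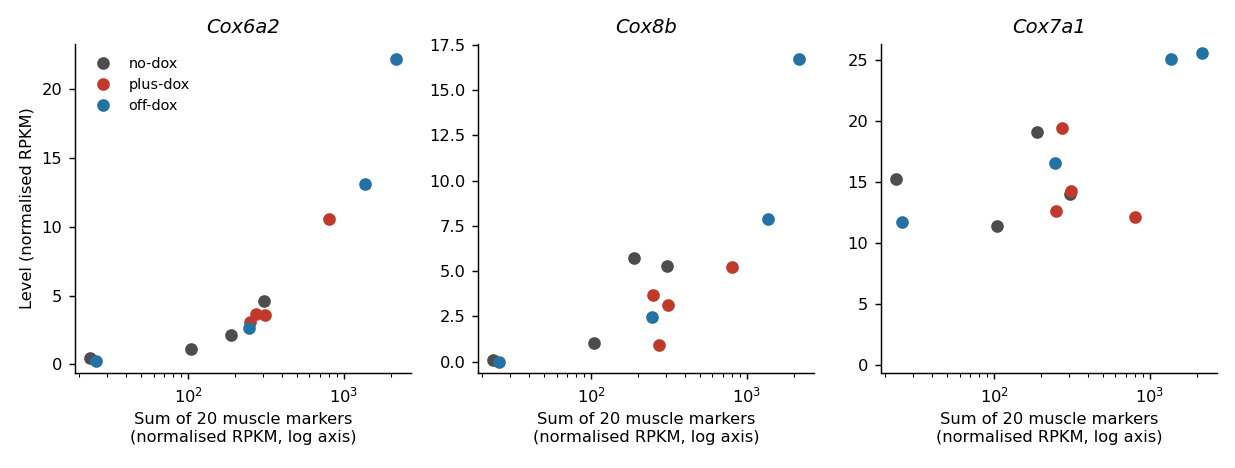
Level of Cox6a2, Cox8b and Cox7a1 (normalised RPKM) against the summed level of 20 skeletal muscle markers (normalised RPKM, log axis), with a point for each of the 12 tumors coloured by group. The tumors with sums of 1365 and 2162 have the highest level of all 3 genes, and the tumors with sums of 23.5 and 25.4 the lowest of Cox6a2 and Cox8b.

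Isoform use was compared within 8 pairs of paralogous subunits by the log2 ratio of their levels, which cancels library size. None of 24 exact permutation tests (8 pairs, 3 comparisons, two-sided) passed. The smallest p was 0.0857, the smallest Benjamini-Hochberg value was 0.789, and with 4 against 4 tumors no p can fall under 0.0286. Cox6a2 made up 0.0737 to 7.21% of the summed level of Cox6a2 and Cox6a1, and Cox8b 0 to 5.65% of that of Cox8b and Cox8a. Ndufa4l2 made up 2.34 to 11.3% of its pair, Cox7a1 7.21 to 15.7%, Cox6b2 0.286 to 0.724% and Cox4i2 0.0783 to 0.599%. The genes Atp5g1, Atp5g2 and Atp5g3 encode the same mature c subunit of the ATP synthase ring with different import peptides. Atp5g1 took 23.7 to 28.6% of the level shared with Atp5g3, with a log2 ratio 0.14 higher in off-dox than in no-dox tumors (exact permutation p = 0.0857, adjusted 0.789). Reads of near-identical copies of such genes cannot be placed with certainty, which limits these ratios.

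In complex V the F1 head, which makes ATP, was lower than the remaining subunits by its medians. Its 5 members had medians of -0.29 in plus-dox and -0.39 in off-dox, and the 10 other subunits -0.16 and -0.11. This difference was not tested. Atp5a1, the alpha subunit of the head, was at 286, 314, 296 and 296 normalised RPKM in no-dox, at 252, 270, 228 and 227 in plus-dox and at 242, 204, 201 and 253 in off-dox tumors, with every no-dox tumor above the other 8. Its log2 fold changes were -0.29 ± 0.11 (edgeR adjusted p = 0.332) and -0.40 ± 0.11 (adjusted p = 0.0967). The beta subunit Atp5b, which holds the catalytic sites, was at 567 to 669 in no-dox, at 429 to 601 in plus-dox and at 369 to 555 in off-dox tumors, a log2 fold change in off-dox of -0.46 ± 0.15 (edgeR adjusted p = 0.143). The gamma subunit Atp5c1, the rotor shaft, was at 158 to 200, 128 to 155 and 133 to 155, with both dox groups below no-dox. Atp5e, the smallest F1 subunit, differed from them, at 510 to 727, 460 to 643 and 417 to 737.

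Atp5j2, the f subunit of the membrane part, gave the largest positive value of complex V in plus-dox, 0.57 ± 0.36 (edgeR adjusted p = 0.469), and it came from 1 tumor. It was at 949 normalised RPKM in plus-dox tumor 2 and at 240 to 386 in the other 11. Without plus-dox tumor 2 the log2 fold change was -0.06. Atp5j2 lies on the minus strand at chr5:145944575-145952461 (mm9). Its neighbours were looked at after its values were seen. From Tecpr1 (start 144956218) to Atp5j2 there are 12 genes above 1 RPKM, and all 12 were highest in plus-dox tumor 2, at 3.02 to 8.56 times the median of the other 11 tumors. Among them were the Arp2/3 subunits Arpc1a and Arpc1b, at 3.68 and 4.73 times. The next genes outward, Lmtk2 on one side and Zkscan14 on the other, were at 0.79 and 0.63 times. The cause of this block was not tested. Without Atp5j2, complex V summed to 4429 ± 433 in no-dox, 3889 ± 322 with dox and 3925 ± 345 off dox (mean ± SD of 4 tumors).

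**Figure D5:**
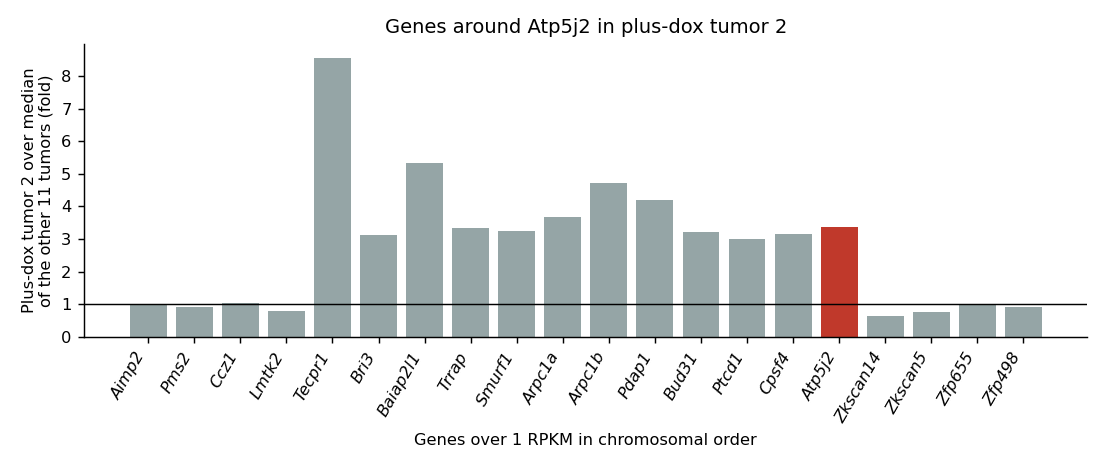
Level in plus-dox tumor 2 divided by the median of the other 11 tumors (fold, axis from 0, line at 1) for Atp5j2 (red) and genes around it above 1 RPKM (grey), in chromosomal order. The run of 12 genes from Tecpr1 to Atp5j2 stands at 3.02 to 8.56 and the genes on both sides stand at 0.63 to 1.05.

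Other genes of the pathway, listed without regard to the name rule, were also below 0 in most cases. Of 77 listed genes 75 were in the files and 74 were tested, of which 60 were below 0 in plus-dox and 55 in off-dox, with medians of -0.13 and -0.14. Between off-dox and plus-dox 37 were below and 37 above 0. In plus-dox none had an adjusted p under 0.1 (edgeR). In off-dox 2 of 74 were lower at that limit, against 1.38% of all genes, and 1 was higher, against 2.08%, so that both counts were near the background. The lower were the complex III assembly factors Uqcc (-0.42 ± 0.09, adjusted p = 0.0832, edgeR) and Bcs1l (-0.51 ± 0.12, adjusted p = 0.0864), and the higher was the mitochondrial DNA polymerase Polg (0.38 ± 0.09, adjusted p = 0.0832). All 8 electron carriers and feeders were below 0 in both comparisons, with cytochrome c1 (Cyc1) at -0.26 ± 0.11 and -0.35 ± 0.11. The electron transfer flavoprotein subunit Etfb, which takes electrons from fatty acid oxidation, was at -0.45 ± 0.15 and -0.53 ± 0.15 (edgeR adjusted p = 0.326 and 0.111). Cytochrome c itself (Cycs) was at -0.06 ± 0.17 and -0.05 ± 0.17.

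Assembly factors of complex IV had smaller medians, -0.08 in each comparison over 21 tested genes. Sco2 was listed but was not among these 21. The 13 regulators of mitochondrial biogenesis had medians of -0.09 and -0.06. Among them Nrf1 was at -0.01 ± 0.09 and -0.07 ± 0.09, Gabpa at 0.09 ± 0.11 and 0.14 ± 0.11, and Tfam, which packages mitochondrial DNA, at -0.10 ± 0.09 and -0.13 ± 0.09. Pprc1, a coactivator, was at 0.35 ± 0.10 and 0.31 ± 0.10 (edgeR adjusted p = 0.322 and 0.129). The ATP synthase inhibitor Atpif1 was at -0.41 ± 0.17 and -0.31 ± 0.17, and the adenine nucleotide carrier Slc25a5 at -0.35 ± 0.14 and -0.35 ± 0.14. The muscle carrier Slc25a4 was at -0.02 ± 0.18 and 0.00 ± 0.18.

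Promoters of these genes are known for sites of the factors NRF1, the ETS family member GABP, and YY1. RefSeq promoters (GRCm38.p6, 250 bases before to 50 after the gene start) were matched by name for 73 of 88 members and were searched on both strands for GCGCATGCG (NRF1), CCGGAAG (ETS) and AAGATGGCG (YY1). NRF1 letters were found in 9 members, or 12.3%, against 1.95% of 27025 genes. ETS letters were in 17 (23.3%, against 9.93%) and YY1 letters in 8 (10.96%, against 1.64%). In no member did matches of different motifs overlap, and 4 members held both NRF1 and ETS letters: Cox6a1, Atp5k, Atp5l and Uqcr11. An upstream region and 3 stretches around the NRF1 letters are shown because these genes hold both motifs and their log2 fold changes differ in sign. Capitals mark the motif letters, and adjoining NRF1 letters on both strands form a run of 10. Cox6a1 is given for its 250 bases before the start (chr5:115348959-115349208, minus strand), with ETS letters near the end. The others are Atp5k (chr5:108434421-108434469), Atp5l (chr9:44920955-44920992) and Uqcr11 (chr10:80406798-80406846), all on the minus strand, and the last ends 24 bases after the start.
Cox6a1: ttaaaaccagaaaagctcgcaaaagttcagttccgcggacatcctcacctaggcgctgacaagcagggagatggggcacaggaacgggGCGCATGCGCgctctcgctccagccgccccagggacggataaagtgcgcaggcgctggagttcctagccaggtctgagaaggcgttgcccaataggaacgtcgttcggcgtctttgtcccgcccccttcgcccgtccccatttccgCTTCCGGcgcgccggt
Atp5k: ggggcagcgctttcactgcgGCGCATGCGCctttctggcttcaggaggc
Atp5l: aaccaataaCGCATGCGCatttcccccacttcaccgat
Uqcr11: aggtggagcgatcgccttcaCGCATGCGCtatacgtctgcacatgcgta

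Of these 4, Cox6a1 and Uqcr11 had log2 fold changes of -0.37 ± 0.11 and -0.42 ± 0.18 in off-dox, while Atp5k and Atp5l had 0.19 ± 0.16 and 0.07 ± 0.18. By motif the members did not part. Those with any of the 3 motifs (29) had medians of -0.16 in plus-dox and -0.21 in off-dox, and those with none (44) -0.19 and -0.19. Members with NRF1 letters had medians of -0.18 and -0.24, with ETS letters -0.17 and -0.21 and with YY1 letters -0.15 and -0.17.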

How the data were processed

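Bulk polyA RNA of 12 tumors was sequenced as unstranded 50-base reads. The authors aligned reads to mm9 with TopHat 1.4.1 (Bowtie 0.12.8) after CASAVA 1.8.2, and counted them over RefSeq genes condensed to 1 unstranded model per gene with bedtools 2.16.2, as given in their methods and processing notes. The deposited files give an estimated count per gene, which need not be whole and was rounded here, and an RPKM value that the authors scaled to mapped reads and used here for the level limits. Because the models carry no strand, reads of overlapping genes cannot be told apart.

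Genes with at least 10 summed counts (17561) were fitted in 1 model of the 12 tumors with edgeR 4.0.16 (quasi-likelihood, TMM, R 4.3.3), and p-values were adjusted by Benjamini-Hochberg over all of them. DESeq2 1.42.0, limma 3.58.1, other normalizations and filters, and leaving out each tumor were alternatives. Isoform ratios used a prior count of 0.5 and an exact permutation test of 70 arrangements. The rule for named members took the 2 most abundant of each complex, the 4 of complex II, the largest absolute log2 fold change of each complex and comparison, any member called, the isoform pairs and those nearest the level limit. Others, among them Ndufa13, Ndufa10, Atp5a1, Uqcrc2, Uqcrfs1, Atp5c1, Ndufs4, Ndufa9 and Cox7b, were named after their values were seen. The script was tested on simulated counts. The members and lists were chosen with earlier results of these data known. Marker lists covered epithelium, muscle, white and brown fat, fibroblasts, pericytes, endothelium, macrophages and red blood cells. An allele of the line and a member gene are not reported here by name.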

Additional observations from a re-analysis of the deposited data

Results flagged for a closer look

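In 5 of 108 groups of 4 tumors, covering 31 members and 5 complex sums, 1 tumor stood far from the other 3, with a gap to the nearest of them above Dixon's critical value. That is 4.63%, and chance gives about 1 in 20. Ndufa10 was at 42.9 normalised RPKM in plus-dox tumor 4 and at 47.5 to 48.4 in the other plus-dox tumors. Cox6a2 was at 10.6 in plus-dox tumor 2 and at 3.09 to 3.68 in the others. Atp5j2 was at 949 in the same tumor and at 259 to 345 in the others, along with its 11 neighbours on chromosome 5. Uqcrh was at 754 in no-dox tumor 3 and at 515 to 535 in the other no-dox tumors, and Atp5e at 727 in that tumor and at 510.2 to 519 in the others.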

How the results depend on the processing

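The medians of members and complexes kept their side of 0 against no-dox in 264 of 268 values, and the 4 above 0 were all of complex IV. Single members were less stable. The number with an adjusted p under 0.1 was 2 with DESeq2 and 4 with limma-voom in plus-dox (1.50 and 2.86% of all genes). In off-dox, against 5 in the edgeR fit, it was 14 with DESeq2, 20 with limma-voom, 3 with RLE normalization, 1 with no filter on low counts, and 8 without plus-dox tumor 2 and off-dox tumor 4, a choice made after seeing the data. The share of all genes at that limit moved along, from 3.46% to 10.98, 13.6, 3.35, 1.1997 and 7.31%. The number of members was 0 at an adjusted p under 0.05, where the smallest adjusted p of any gene in edgeR was 0.0786. It was also 0 with only the 8 tumors compared (3 of 17114 genes passed) and with the genic share as a covariate (0 of 17561 genes). Leaving out single tumors gave 0 to 13. Members called in off-dox numbered 5 with no fold limit, where 3.46% of all genes had an adjusted p under 0.1. Limma-voom called 1 of 88 members (Ndufv1), against 641 of 17561 genes. Without both tumors 1 was called (Cox6a2), against 473 of 17329 genes. As single tumors were left out, 0 to 2 members were called, while the calls over all genes ran from 0 to 786.

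With the genic share as a covariate, the off-dox medians were -0.048 for all members, -0.061 for complex I, -0.056 for complex II, -0.042 for complex III and -0.020 for complex V, and the plus-dox median of complex II was -0.049. In that fit log2 fold changes in plus-dox and off-dox were 0.013 and 0.016 for Sdhb, 0.020 and 0.041 for Atp5b, and 0.041 and 0.084 for Atp5g3. Cox8a was at 0.026 in plus-dox, and Cox7a1 and Cox8b were at -0.33 and -0.49 in off-dox. Without plus-dox tumor 2 and off-dox tumor 4, Atp5j2 was at -0.068 in plus-dox and at 0.016 between off-dox and plus-dox. The cause of these changes was not tested.

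As single tumors were left out, Atp5j2 in plus-dox ran from -0.062 to 0.77. Between off-dox and plus-dox the log2 ratio ran from -0.62 to 0.046 for Cox4i2 to Cox4i1, from -0.99 to 1.14 for Cox6a2 to Cox6a1, from -1.20 to 1.55 for Cox8b to Cox8a and from -0.097 to 0.091 for Atp5g2 to Atp5g3. Between off-dox and no-dox it ran from -0.022 to 0.39 for Cox6b2 to Cox6b1, from -0.14 to 2.75 for Cox8b to Cox8a, from -0.085 to 0.40 for Ndufa4l2 to Ndufa4 and from -0.16 to 0.026 for Atp5g2 to Atp5g3. Between plus-dox and no-dox it ran from -0.19 to 0.073 for Cox7a1 to Cox7a2 and from -0.13 to 0.016 for Atp5g2 to Atp5g3. The off-dox to plus-dox ratio of Cox8b to Cox8a was 0.027 with RPKM plus 0.1 and 0.22 with a prior count of 2, against -0.22.

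Tumors with the same replicate number deviated from their group means with a mean correlation of -0.088 over 12 pairs, of which 2 were over 0.1. The values ran from -0.45 to 0.57. They showed no pairing by number, and so few pairs cannot exclude one. With the replicate number as a block, 0 members had an adjusted p under 0.1 in off-dox, and so did 0 of all 17561 genes. The members' medians in that fit were -0.18 in plus-dox and -0.20 in off-dox. Depth limits Cox8b, Ndufs5, Cox6a2, Cox4i2 and Cox6b2 most, with 0, 3, 3, 10 and 13 counts in their lowest tumor.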
